A study of Homo sapiens with 12 samples.

Results

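The genes FAM83A, CSRNP3, SLPI, CTNND2, FGF12, ENTPD3, BCAS1 and TPM4 were among those whose response to 10 nM progestin shifted most between 6 h and 18 h in T47D cells. They were picked by symbol, 8 of the 20114 symbols in the table, and all 8 had enough counts to test. The values that chose them were the differences from vehicle at 10 nM, at 18 h minus at 6 h, so every value that holds a 10 nM or a vehicle library is given below as a description with no test. T47D is an established human breast carcinoma line of luminal type. The cells were held in medium with charcoal-stripped serum, starved of serum, and then given vehicle, 100 pM or 10 nM of a progestin that the labels do not name. RNA was taken after 6 h or 18 h, which gives 6 groups of 2 libraries, numbered replicate 1 and replicate 3. All groups share the line and the starvation. The labels do not state whether both libraries of a group were grown as separate cultures, so a p-value reflects the spread among these libraries, which may be technical.

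Progestins act through the progesterone receptor, a transcription factor that binds DNA once it holds its ligand and can raise or lower the genes it reaches. In breast epithelium the receptor governs growth and secretory differentiation, and T47D cells carry it at high levels. Changes at an early time can include direct effects of the receptor, while later ones also include effects of proteins made in the meantime. The 8 genes belong to no single pathway. SLPI encodes a secreted inhibitor of leukocyte elastase, and ENTPD3 an enzyme at the cell surface that breaks down extracellular nucleotides. FAM83A is a scaffold that binds casein kinase 1, and FGF12 is an intracellular relative of the fibroblast growth factors that binds sodium channels. CTNND2 (delta-catenin) is a cadherin-binding armadillo protein of the p120 group, and TPM4 is a tropomyosin that coats actin filaments. CSRNP3 is a nuclear protein that activates transcription, and BCAS1 was named for its amplification in breast carcinoma.

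The libraries held 34204970 to 41373890 counts each, and 13872 genes were tested. All 10 luminal markers looked up, among them ESR1, PGR and GATA3, were above 1 CPM (the count relative to the scaled library size) in every library, with summed levels of 6503 to 13477 CPM. The summed levels were 4.45 to 13.3 CPM for 5 basal or myoepithelial markers, 73.8 to 121 CPM for 5 mesenchymal markers (mostly COL1A1), 0.692 to 1.91 CPM for 5 immune markers and 0.104 to 0.927 CPM for 4 endothelial markers. The 13 mitochondrially encoded genes took 6.69% to 10.8% of counts, more in replicate 3 than in replicate 1 in 6 of 6 groups.

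Genes called in the difference between times (10.5% of those tested) whose average log2 CPM was 2 or more, a set of 1373, were ranked by its size. The 8 genes held ranks 1 to 7 and 10, which restates how they were chosen and is no test of them. The last of the 8 was CSRNP3, with a log2 difference of 2.70 ± 0.34 (SE). The genes nearest to it were APLN just above (-2.71 ± 0.51) and CITED1 just below (-2.67 ± 0.33), neither of them among the 8, and CLDN8, ranked 8, had 2.92 ± 0.77. The 8 genes fell into 3 patterns. FAM83A and CSRNP3 were far below vehicle at 10 nM at 6 h but above it (FAM83A) or much nearer to it (CSRNP3) at 18 h, SLPI was high at 6 h and higher at 18 h, and CTNND2, FGF12, ENTPD3, BCAS1 and TPM4 were moderately lower at 6 h and far lower at 18 h.

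**Figure D1:**
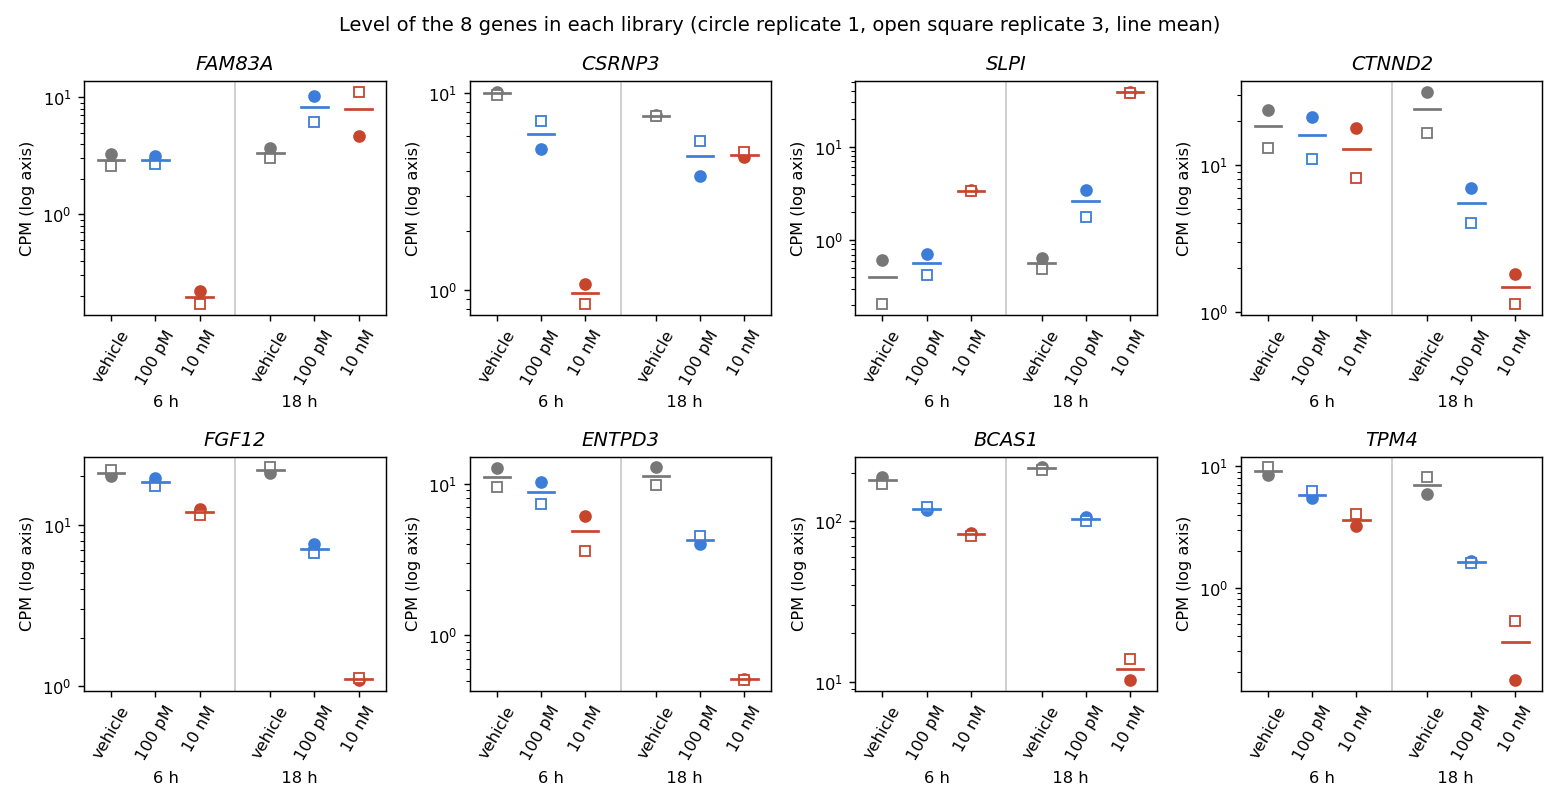
Level of each gene in every library, in CPM on a log axis, by dose at 6 h (left) and 18 h (right). Filled circles are replicate 1, open squares replicate 3 and lines the mean of the 2 libraries. FAM83A and CSRNP3 are lowest at 10 nM at 6 h, SLPI is highest at 10 nM at 18 h (38.0 and 38.9 CPM), and the other 5 genes are lowest at 10 nM at 18 h.

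FAM83A had the largest shift. Its 10 nM libraries at 6 h measured 0.221 and 0.169 CPM (8 and 6 counts; here and below in the order replicate 1, replicate 3), against 3.26 and 2.56 CPM in vehicle and 3.13 and 2.68 CPM at 100 pM. At 6 h the gene was thus 14.9-fold below vehicle at 10 nM, with no overlap, and within the vehicle range at 100 pM. At 18 h the level was 4.68 and 11.2 CPM at 10 nM, 10.3 and 6.16 CPM at 100 pM, and 3.66 and 3.03 CPM in vehicle. Both doses then lay above vehicle in each library and overlapped each other. The fitted log2 fold change against vehicle at 10 nM was -3.87 ± 0.54 (SE) at 6 h and 1.24 ± 0.40 at 18 h. The sign at 18 h was the same in both replicates, but the size was 0.35 in replicate 1 alone and 1.86 in replicate 3 alone. The difference between times of 5.12 ± 0.68 became 4.34 when replicate 3 of 10 nM at 18 h was left out.

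CSRNP3 showed a dip at 10 nM that had mostly closed by 18 h. At 6 h it measured 1.08 and 0.846 CPM at 10 nM, against 10.1 and 9.68 CPM in vehicle and 5.19 and 7.20 CPM at 100 pM. The 3 groups did not overlap at this time, and the 10 nM mean was 9.74% of vehicle. At 18 h it measured 4.71 and 5.00 CPM at 10 nM, 3.79 and 5.71 CPM at 100 pM and 7.69 and 7.61 CPM in vehicle. Both doses were still below vehicle at 18 h and no longer apart from each other. The log2 fold change against vehicle went from -3.36 ± 0.26 at 6 h to -0.66 ± 0.23 at 18 h for 10 nM. For 100 pM it was -0.68 ± 0.23 at 6 h and -0.69 ± 0.23 at 18 h, and 10 nM minus 100 pM was -2.68 ± 0.26 at 6 h and 0.03 ± 0.23 at 18 h.

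SLPI, the one gene of the 8 that was above vehicle at 10 nM at both times, went from 3.46 and 3.33 CPM at 6 h to 38.9 and 38.0 CPM at 18 h. Vehicle measured 0.610 and 0.205 CPM at 6 h (24 and 8 counts) and 0.643 and 0.487 CPM at 18 h. The 10 nM mean was 8.33 times vehicle at 6 h and 68.1 times vehicle at 18 h, with no overlap at either time. At 100 pM the gene measured 0.710 and 0.428 CPM at 6 h, overlapping vehicle, and 3.45 and 1.77 CPM at 18 h, above both vehicle libraries. The 100 pM level at 18 h, 2.61 ± 1.19 CPM, was close to the 10 nM level at 6 h, 3.39 ± 0.0928 CPM (SD, n = 2), and 14.7-fold below 10 nM at the same time by the fit. The difference between times at 10 nM was 3.04 ± 0.66 (log2), and it depended on the few vehicle counts at 6 h, being 2.05 without replicate 1 and 3.61 without replicate 3 of that group.

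The 5 other genes shared one course. At 6 h their 10 nM means were 39.6% to 70.4% of vehicle (median 46.1%), and at 18 h they were 4.53% to 6.11% (median 5.07%). At 100 pM the same 5 genes were at 63.6% to 87.7% of vehicle at 6 h and at 22.9% to 48.6% at 18 h, so each was nearer to vehicle than at 10 nM at both times. Across the 12 libraries the log2 levels of these 5 genes correlated with Pearson's r of 0.881 to 0.981 over 10 pairs, and each correlated with SLPI at r of -0.947 to -0.835. These correlations describe libraries that share dose and time groups and genes chosen for a shift at 10 nM. In a bulk sample, fewer cells with a transcript and less RNA per cell cannot be told apart.

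FGF12 was the most even of the 5 between replicates. Its 10 nM libraries measured 12.5 and 11.5 CPM at 6 h and 1.09 and 1.12 CPM at 18 h, against 20.2 and 21.8 CPM and then 20.9 and 22.7 CPM in vehicle. The 100 pM libraries went from 19.5 and 17.4 CPM to 7.58 and 6.67 CPM. At 18 h the 3 groups stood apart in order of dose, and vehicle differed between times by only 0.05 ± 0.11 (log2). The log2 fold change at 10 nM against vehicle was -0.81 ± 0.11 at 6 h and -4.30 ± 0.14 at 18 h.

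BCAS1 had the most counts of the 8, with at least 357 in each library. It measured 189 and 169.9 CPM in vehicle, 117 and 121 CPM at 100 pM and 84.8 and 80.6 CPM at 10 nM at 6 h. At 18 h the values were 216 and 209 CPM, 107 and 99.5 CPM, and 10.2 and 13.8 CPM. The groups were thus ordered by dose without overlap at both times, and the 10 nM mean was 17.6-fold below vehicle at 18 h against 2.17-fold at 6 h. Between the doses, 10 nM was 0.53 ± 0.12 (log2) below 100 pM at 6 h and 3.10 ± 0.14 below it at 18 h.

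ENTPD3 and TPM4 had fewer counts and the same order. ENTPD3 measured 12.7 and 9.50 CPM in vehicle, 10.2 and 7.28 CPM at 100 pM and 6.09 and 3.58 CPM at 10 nM at 6 h. There the gene overlapped between 100 pM and vehicle, but was lower at 100 pM within each replicate number (log2 -0.32 and -0.38). At 18 h it measured 12.8 and 9.78 CPM, 4.0 and 4.50 CPM, and 0.517 and 0.506 CPM, the last from 18 counts in each library. The 10 nM mean of this nucleotidase was thus 22.1-fold below vehicle at 18 h, the lowest share of vehicle among the 8 genes at that time. TPM4 measured 8.55 and 9.81 CPM in vehicle, 5.46 and 6.23 CPM at 100 pM and 3.21 and 4.06 CPM at 10 nM at 6 h. At 18 h it measured 5.87 and 8.12 CPM, 1.66 and 1.60 CPM, and 0.172 and 0.534 CPM, the last from 6 and 19 counts. Its groups did not overlap at either time, but the libraries at 10 nM at 18 h were far apart from each other. Without replicate 3 of that group the difference between times for TPM4 was -3.99, and without replicate 1 it was -2.37, against -2.96 ± 0.50 with both.

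CTNND2 differed between replicates in the same direction throughout. Replicate 1 was above replicate 3 in 6 of 6 groups, by 1.61-fold to 2.18-fold, and the share of mitochondrial counts moved with the replicate number too; whether these are linked was not tested. At 6 h vehicle measured 23.8 and 13 CPM, 100 pM 21.2 and 11 CPM, and 10 nM 17.7 and 8.15 CPM. The 3 groups overlapped, but within each replicate number they stood in order of dose. There 10 nM against vehicle was -0.42 in replicate 1 and -0.67 in replicate 3 (log2). At 18 h vehicle measured 31.6 and 16.4 CPM, 100 pM 6.96 and 4.03 CPM, and 10 nM 1.81 and 1.12 CPM, and no groups overlapped. The log2 fold change at 10 nM against vehicle was -0.51 ± 0.53 at 6 h and -4.03 ± 0.62 at 18 h. The fit had no term for replicate number, so these SE include the spread between replicate numbers. Compared within each replicate number, the difference between times was -3.67 in replicate 1 and -3.13 in replicate 3. It was -2.86 when replicate 1 of 10 nM at 6 h was left out.

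**Figure D2:**
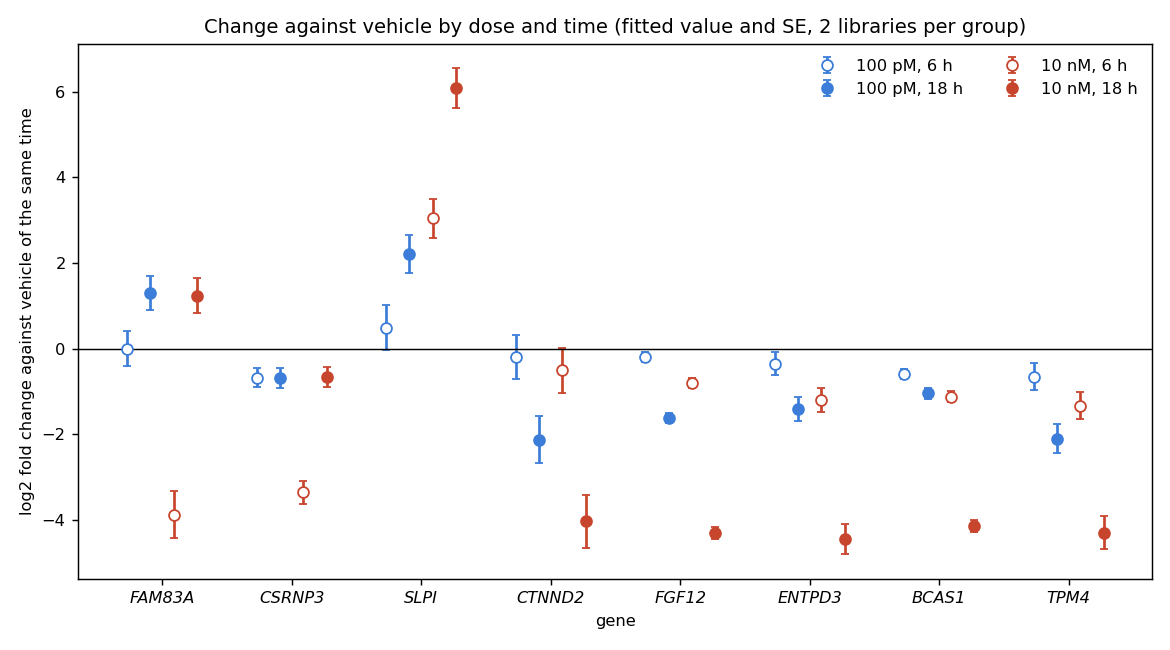
Fitted log2 fold change of each gene against vehicle of the same time (y axis) for 100 pM (blue) and 10 nM (red) at 6 h (open) and 18 h (filled); bars are the SE of the fit to 2 libraries per group. At 10 nM, FAM83A moves from -3.87 to 1.24 and CSRNP3 from -3.36 to -0.66, while the 5 genes from CTNND2 to TPM4 move from between -0.51 and -1.34 to between -4.03 and -4.45.

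The log2 change of vehicle from 6 h to 18 h lay between -0.39 ± 0.31 for TPM4 and 0.46 ± 0.53 for SLPI. Its median was 0.13 over the 8 genes and -0.01 over all genes tested. The 5th to 95th percentile of all genes was -0.348 to 0.379. TPM4, SLPI, CSRNP3 (-0.371 ± 0.225) and CTNND2 (0.383 ± 0.521) lay outside this range, and the rest of the 8 within it. The 10 nM libraries changed by 5.32 ± 0.54 for FAM83A, 3.50 ± 0.39 for SLPI and 2.33 ± 0.26 for CSRNP3, and by -2.78 ± 0.14 for BCAS1 to -3.44 ± 0.14 for FGF12 among the other 5. In each of the 8 genes the change between times was larger at 10 nM than in vehicle, which the choice of the genes largely set in advance. At 10 nM, 3 genes were higher at 18 h than at 6 h without overlap (30.9% of all genes) and 5 were lower (30.9%). In vehicle 1 was higher and 2 were lower (10.3% and 13.6%).

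Counted over the 8 genes, 10 nM lay below vehicle without overlap in 6 and above it in 1 at 6 h (35.4% and 36.1% of all genes), and below it in 6 and above it in 2 at 18 h (32.6% and 33.2%). Against 100 pM, 10 nM lay lower in 6 and higher in 1 at 6 h (34.5% and 34%), and lower in 5 and higher in 1 at 18 h (28.7% and 31.4%). At 18 h, FAM83A and CSRNP3 were the genes in which the 2 doses overlapped. These counts rest on libraries that chose the genes.

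The 100 pM libraries took no part in the choice of the genes, so the change from 6 h to 18 h within that dose could be tested. FGF12 fell by 1.37 ± 0.12 on the log2 scale and TPM4 fell by 1.84 ± 0.33, with adjusted p of 0.00280 and 0.0419 (edgeR's quasi-likelihood test, Benjamini-Hochberg over 13872 genes). These were 2 of the 8 genes, where 0.656% of all genes were called lower and 0.526% higher. As levels, FGF12 went from 18.5 ± 1.42 to 7.13 ± 0.644 CPM and TPM4 from 5.84 ± 0.542 to 1.63 ± 0.0405 CPM (SD, n = 2). The other 6 genes were not called in this fit, which had no term for replicate number. Their log2 values were 2.18 ± 0.45 for SLPI (edgeR adjusted p = 0.0601), 1.5 ± 0.40 for FAM83A (0.121), -1.04 ± 0.29 for ENTPD3 (0.126), -1.55 ± 0.54 for CTNND2 (0.204), -0.21 ± 0.12 for BCAS1 (0.455) and -0.38 ± 0.23 for CSRNP3 (0.462). Both libraries at 18 h were below both at 6 h in 5 of the 8 genes (23.3% of all genes) and above both in 2 (19.2%), with CSRNP3 the one that overlapped. The median over the 8 genes was -0.71, against -0.01 over all genes tested.

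FGF12 kept its call without any 1 of the 4 libraries (edgeR adjusted p 0.0262 to 0.0395), whereas TPM4 lost it without each of them: 0.168 without replicate 1 and 0.185 without replicate 3 at 18 h, and 0.164 without replicate 1 and 0.230 without replicate 3 at 6 h. Both lost it when only the 4 libraries at 100 pM were fitted (edgeR adjusted p = 0.256 for each). No gene was called by edgeR in that fit, although 1499 had an unadjusted p under 0.05. DESeq2, on all 12 libraries, called 855 genes (479 higher and 376 lower, against 73 and 91 by edgeR). Among them were 5 of the 8 (FAM83A, SLPI, FGF12, ENTPD3 and TPM4), where 6.41% of the 13334 genes with a DESeq2 adjusted p were called. With a term for replicate number, edgeR called 6 of the 8 and 22.2% of all genes, as given in the last section.

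**Figure D3:**
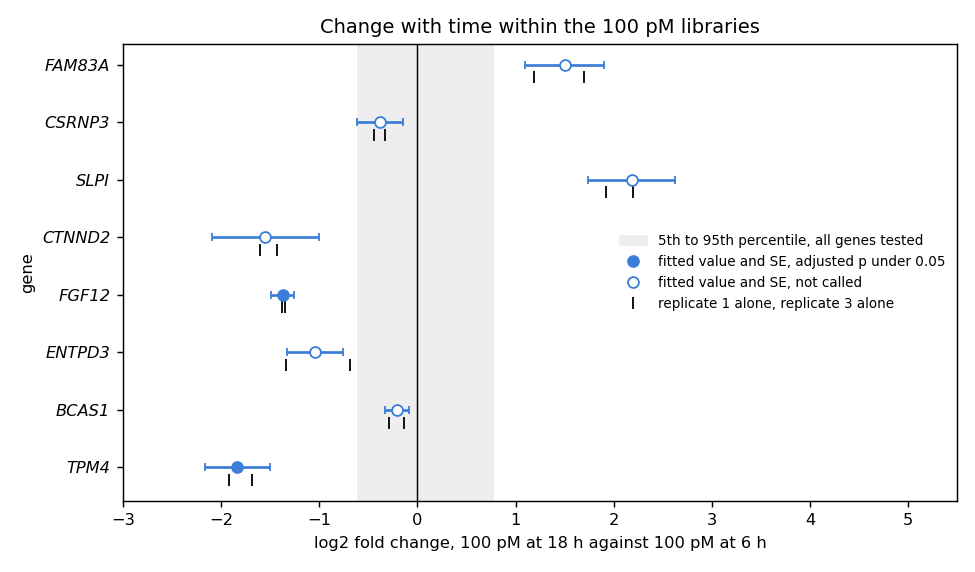
Log2 fold change of each gene within the 100 pM libraries, 18 h against 6 h (x axis). Circles are the fitted value with its SE, filled where the adjusted p was under 0.05 (FGF12 and TPM4), ticks are the values from replicate 1 alone and replicate 3 alone, and the grey band spans the 5th to 95th percentile of all genes tested (-0.60 to 0.77); BCAS1 and CSRNP3 lie within it.

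Set against vehicle, which shares libraries with the choice of the genes, 100 pM lay below vehicle without overlap in 4 of the 8 genes at 6 h (19.6% of all genes) and in 6 at 18 h (28.1%). It lay above vehicle without overlap in none of the 8 at 6 h (17.1%) and in 2, FAM83A and SLPI, at 18 h (24%). For CTNND2, FGF12, ENTPD3, BCAS1 and TPM4 the log2 fold change at 100 pM against vehicle went from between -0.65 and -0.19 at 6 h to between -2.12 and -1.04 at 18 h. BCAS1 had the smallest move among these 5, from -0.59 ± 0.12 to -1.04 ± 0.13, and CTNND2 the largest, from -0.19 ± 0.52 to -2.12 ± 0.55.

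For each gene the 2 genes with the most similar log2 levels over the 12 libraries were looked up among 9920 candidates. They were ZFYVE16 and SMPDL3A for FAM83A (r = 0.951 and 0.948), IKZF2 and PPP2R5C for CSRNP3 (0.982 and 0.981), and CALU and MAP2K1 for SLPI (0.986 for both). CTNND2 was most like MATN2 and RBM19 (0.975 and 0.970), FGF12 most like NCAM2 and ANXA6 (0.991 and 0.989) and TPM4 most like NCAM2 and NAALADL2 (0.986 and 0.974). ENTPD3 was most like PPT1 and SLC16A4 (0.987 and 0.983) and BCAS1 most like PPT1 and ETFA (0.989 and 0.982). The same gene, NCAM2, a neural cell adhesion molecule, thus came first for FGF12 and for TPM4, and PPT1, a lysosomal thioesterase, came first for ENTPD3 and for BCAS1. All points share the 6 groups, so these values describe a like response to dose and time.

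RefSeq promoter windows (GRCh38.p14, while the counts were made on hg19) were matched by symbol for 5 of the 8 genes: CSRNP3, CTNND2, FGF12, ENTPD3 and TPM4, with 9 windows in all since some have several starts. The 250 bases before the start are shown for 3 of the genes that were far lower at 18 h and for CSRNP3, the matched gene that was low early. They are examples: the TPM4 windows and the other starts of FGF12 and CTNND2 are not shown. The CTNND2 start shown is the one with a TGTTCT match. The make-up of all 9 windows is given below. The FGF12 window is chr3:192727542-192727791 (minus strand), the first of 2 starts, that of ENTPD3 is chr3:40386934-40387183 (plus strand), that of CTNND2 is chr5:11588918-11589167 (minus strand), the second of 2 starts, and that of CSRNP3 is chr2:165572086-165572335 (plus strand). Capitals mark matches on either strand to the motifs searched, and the counts per gene do not say which start was used.
FGF12: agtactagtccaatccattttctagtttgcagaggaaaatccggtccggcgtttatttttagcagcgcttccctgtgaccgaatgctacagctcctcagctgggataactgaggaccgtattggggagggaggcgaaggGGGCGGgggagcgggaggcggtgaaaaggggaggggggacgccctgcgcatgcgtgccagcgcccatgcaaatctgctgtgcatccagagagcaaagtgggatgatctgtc
ENTPD3: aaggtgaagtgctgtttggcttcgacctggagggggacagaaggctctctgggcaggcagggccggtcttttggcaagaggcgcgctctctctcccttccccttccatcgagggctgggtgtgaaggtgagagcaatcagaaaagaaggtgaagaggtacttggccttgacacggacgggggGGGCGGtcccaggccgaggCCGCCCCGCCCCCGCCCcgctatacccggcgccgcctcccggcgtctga
CTNND2: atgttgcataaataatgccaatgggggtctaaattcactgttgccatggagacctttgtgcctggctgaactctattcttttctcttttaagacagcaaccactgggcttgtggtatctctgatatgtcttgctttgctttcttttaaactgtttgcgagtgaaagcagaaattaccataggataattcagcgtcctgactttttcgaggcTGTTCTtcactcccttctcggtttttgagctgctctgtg
CSRNP3: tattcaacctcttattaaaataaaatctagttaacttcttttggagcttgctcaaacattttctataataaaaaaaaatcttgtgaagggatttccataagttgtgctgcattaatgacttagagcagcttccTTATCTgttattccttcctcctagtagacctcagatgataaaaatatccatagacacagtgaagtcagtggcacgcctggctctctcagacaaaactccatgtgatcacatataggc

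Each of 8 motifs was searched on both strands. The progesterone receptor palindrome was in 0 of the 9 windows and in 0.327% of 35116 windows of the same length. One arm of it, spelled TGTTCT, was in 1 of the 9, the CTNND2 window shown, and in 12.4% of all windows. The GATA motif, spelled AGATAA, was in the window of CSRNP3 and in 9.17% of all windows. The GC box, spelled GGGCGG, was in 6 of the 9 windows, all those of ENTPD3, FGF12 and TPM4, and in 42.6% of all windows. The E-box, spelled CACGTG, was in the other window of CTNND2 and in 6.34% of all windows. None of the 9 windows held the AP-1 motif, spelled TGANTCA and found in 6.57% of all windows. None held the forkhead motif, spelled TGTTTAC and found in 2.98%, or the TATA box, spelled TATAAA and found in 10.7%. An arm of the palindrome can overlap the palindrome itself. G and C made up 36% of the CSRNP3 window, 42.4% of the CTNND2 window shown, 57.6% of the FGF12 window shown and 66% of the ENTPD3 window. They made up 67.2% of the other CTNND2 window, 77.2% of the other FGF12 window, and 61.2%, 74.4% and 75.6% of the TPM4 windows. The median over all windows was 58%. A match is a run of letters and not a measured site.

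The closest relatives of the 8 genes, and neighbours of BCAS1 in its breast cancer amplicon, were tested in the same fit, since the choice did not name them. Of 36 such genes with enough counts, 11 were higher and 5 lower at 10 nM at 6 h (22.6% and 19.4% of all genes, 42% together), and 10 were higher and 6 lower at 18 h (19% and 15.2%, 34.1% together). In the difference between times 0 of the 36 were called higher and 2 lower (4.55% and 5.99% of all genes). They were CTNND1 (p120-catenin), with a log2 difference of -0.75 ± 0.17, and PKP4, a plakophilin-related armadillo protein, with -0.46 ± 0.11 (edgeR adjusted p = 0.0264 and 0.0308). CTNND1 rose at 10 nM, by 1.44 ± 0.12 at 6 h and by 0.69 ± 0.12 at 18 h (edgeR adjusted p = 3.35e-05 and 0.00224). The 2 called genes were among 6 tested p120 catenins and plakophilins, whose median difference was -0.56, against 0.01 over all genes tested. As 2 of 36, they were no larger a share than among all genes tested (10.5% called in either direction).

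By edgeR's test no gene of the other lists was called in the difference between times. The nearest was CSRNP1, at -0.57 ± 0.16 (edgeR adjusted p = 0.0544), which was called by DESeq2 (adjusted p = 0.0122) and by edgeR with the size factors of DESeq2 (0.0484). Of the 3 other tropomyosins, TPM1 fell at 18 h (-1.31 ± 0.28, edgeR adjusted p = 0.00709) and measured -0.28 ± 0.28 at 6 h, TPM2 fell at both times, and TPM3 measured -0.11 ± 0.08 and -0.12 ± 0.08. FGF11 rose at 10 nM (1.73 ± 0.32 at 6 h and 1.94 ± 0.33 at 18 h) and FGF13 fell (-1.46 ± 0.32 and -1.15 ± 0.32), with edgeR adjusted p of 0.00206 to 0.0238. CSRNP1, a relative of CSRNP3, rose at both times (2.20 ± 0.12 and 1.63 ± 0.11), opposite in sign to CSRNP3. Of 6 other FAM83 genes, FAM83E fell and FAM83F rose at 6 h (-1.62 ± 0.33 and 1.06 ± 0.21), and none was called at 18 h. WFDC2, which like SLPI carries the whey acidic protein fold, was called higher at both times (edgeR adjusted p = 0.0110 and 0.0127), from means of 0.0254 CPM in vehicle to 0.349 CPM at 6 h and of 0.0550 to 0.514 CPM at 18 h, so its fold rests on very few counts. Of 10 other genes listed beside ENTPD3, nucleotidases and related enzymes of which some act inside the cell, 3 rose and 1 fell at 6 h and 3 rose and 2 fell at 18 h, ENTPD8 being lower at both (-1.48 ± 0.19 and -1.55 ± 0.19). Of the 5 neighbours of BCAS1 with enough counts, BCAS4 rose (2.10 ± 0.25 and 1.54 ± 0.25) and the other 4 were not called. TPM4 has close copies elsewhere in the genome, and FAM83A, ENTPD3, BCAS1 and TPM4 share exon positions with genes on the opposite strand, so with no strand setting given their reads cannot be told apart.

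**Figure D4:**
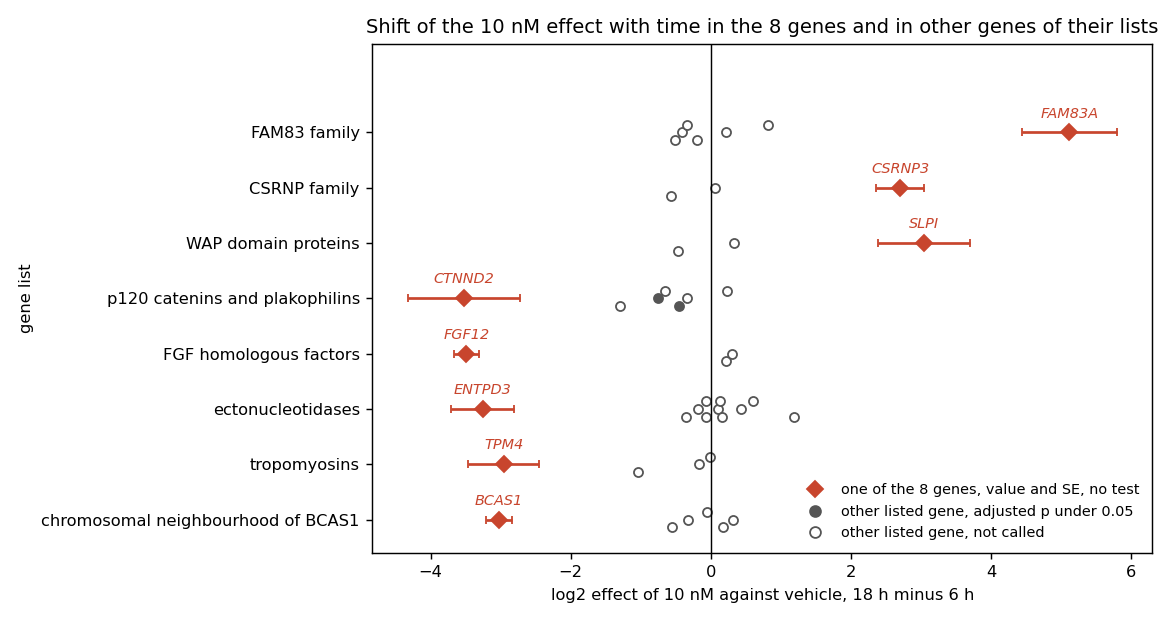
Log2 effect of 10 nM against vehicle, 18 h minus 6 h (x axis), by gene list. Red diamonds are the 8 genes with their SE, shown as values that chose them, and grey circles are the 36 other genes tested, filled where the adjusted p was under 0.05 (CTNND1 and PKP4); the grey circles lie between -1.30 and 1.18.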

How the data were processed

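RNA-seq of 12 T47D libraries was used. The authors deposited raw read counts per gene symbol, made by aligning to hg19 with STAR, per the submitters' processing notes, which also name DESeq2 with no role. Not given in the sources used here: versions, counter, annotation and strand setting. All 12 columns were used.

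The tests used edgeR 4.0.16 and DESeq2 1.42.0 in R 4.3.3. The filter was filterByExpr, which left 13872 of 20114 genes, and TMM set the library scaling. One model with a mean for each of the 6 groups left 6 residual degrees of freedom for edgeR's robust quasi-likelihood test. A call was a Benjamini-Hochberg adjusted p under 0.05. Values after ± are SE for log2 values and SD for CPM, and log2 CPM used a prior count of 2. The 8 genes, the lists and the tests were chosen with earlier results of these data known. All 8 genes were named, with the 2 most similar genes for each (average log2 CPM of at least 2) and listed relatives. Similar genes were sought without clone names, antisense genes and pseudogenes. The chi-square between replicates of a group, over its degrees of freedom, was 43.0 to 65.0, more than repeated counting of 1 library gives. On simulated data (13872 genes, 100 pM at 18 h against 6 h), 25.8% of 1.5-fold, 74.3% of 2-fold and 92.6% of 4-fold changes were called, with 5 false calls. For the difference between times at 10 nM, on as many genes, these were 7.14%, 25.7% and 90%, also with 5 false calls. The simulated libraries were independent, with a spread set by expression level and none particular to a gene. They held no difference between replicate numbers, so these shares need not hold for the real libraries. The alternatives were DESeq2, other size factors, no filter, a replicate block, fewer groups and leaving out each library. The labels name no molecular identifiers. Promoter windows came from RefSeq, and strand overlaps from GENCODE release 29.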

Additional observations from a re-analysis of the deposited data

Results flagged for a closer look

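The 10 nM effect of 2 relatives of CTNND2 differed between 6 h and 18 h by the test of that difference. They were 2 of the 36 listed genes tested, no larger a share than the 10.5% called among all genes. CTNND1 had a log2 difference of -0.75 and PKP4 of -0.46. CTNND1 measured 733 ± 14.2 CPM in vehicle and 1994 ± 136 CPM at 10 nM at 6 h, and 721 ± 23.1 and 1162 ± 203 CPM at 18 h (SD, n = 2). PKP4 measured 232 ± 5.97 and 199 ± 4.78 CPM at 6 h, and 234 ± 6.42 and 145.8 ± 5.22 CPM at 18 h. The CTNND1 call was kept without either 10 nM library at 18 h and without replicate 3 of 10 nM at 6 h (edgeR adjusted p 0.0120 to 0.0476), and lost without each of the other 5 libraries (0.0742 to 0.0881). PKP4 was not called whichever of the 8 libraries was left out (0.0685 to 0.114).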

How the results depend on the processing

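The count of genes called at 100 pM between the times, 164, was 855 with DESeq2 (479 higher and 376 lower, against 73 and 91), 0 when only the 4 libraries were fitted (2 residual degrees of freedom, against 6), and 9 to 26 without any 1 of the 4. The difference between times at 10 nM, 1462 genes, was 2316 with DESeq2 and 467 to 860 without any 1 of the 8, and the 2 relatives called became 0 when only the 8 libraries were fitted and 0 to 2 without 1 library. With the replicate block the counts were 3076 at 100 pM, 7767 (from 4734) at 10 nM and 18 h, and 4863 and 12 for the difference; 6 of the 8 genes were then called at 100 pM, all but CSRNP3 and BCAS1 (edgeR adjusted p = 1.18e-05 for CTNND2, 0.00109 for SLPI, 0.00222 for ENTPD3 and 0.0286 for FAM83A, none of them called without the block). The cause of these moves was not tested. The labels do not say what a replicate number shares; same-numbered libraries deviated alike from their groups' means (r = 0.464 to 0.677, 15 pairs of groups). No sign changed in 104 recalculations of the difference for the 8 genes or in 72 at 100 pM. The 8 genes were chosen for large differences in these libraries, so a change of sign in the difference was unlikely. In 9 of the 104 the difference moved by at least its SD between the 2 replicate numbers (6 for CTNND2, 2 for TPM4 and 1 for SLPI). Depth limits TPM4, ENTPD3 and FAM83A in their lowest groups, at 6 to 19 counts per library. It also limits SLPI in vehicle at both times and at 100 pM at 6 h, at 8 to 29 counts per library.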
